A study of Mus musculus with 12 samples.

Results

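The interferon-stimulated genes are a set of 39 listed mouse genes that cells switch on when an interferon binds its receptor. Members were taken by symbol from probe sets annotated to exactly 1 gene, and where a gene had several such probe sets, that with the highest mean across the 12 arrays represents it. By this rule 35 of the 39 members were measured, among 22180 genes in all. The probe sets of Dtx3l, Oas1a and Gbp2 were annotated to more than 1 gene each, and Ifi44 was not analysed here. The list is described over 2 kinds of material from 2 fat depots of C57BL/6 mice, with no treatment named in the labels.

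Preparations of adipose progenitors (AP) and whole adipose tissue (AT) were each taken from inguinal subcutaneous fat (SAT) and from perigonadal visceral fat (VAT), which gave 4 groups of 3 biological replicates. AP were obtained by enzymatic dissociation of fat from several mice, followed by removal on beads of lineage-positive blood cells and CD31-positive endothelial cells from the stromal vascular fraction. AT was not fractionated, so it holds adipocytes and resident blood cells as well as progenitors. All material was freshly isolated. The labels give neither the age nor the sex of the mice, nor which mice contributed to each replicate, and a p-value here reflects only the variation among these samples. Dissociation was applied to AP and not to AT, and its effect cannot be told apart from that of cell type in any comparison of AP with AT.

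Type I interferons act through a receptor made of Ifnar1 and Ifnar2, whose JAK kinases phosphorylate STAT factors, among them Stat2. Stat2 joins Irf9 in a complex that binds the interferon-stimulated response element (ISRE), while interferon gamma, the type II interferon, acts through the gamma-activated site (GAS). Many of the induced genes block viral replication, and others feed back on the pathway: Irf7 and Irf9 amplify it, and Usp18 shuts down signalling at the receptor. In fat, macrophages, progenitors and adipocytes can all respond to interferon.

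Promoter sequence is described here apart from expression. The list names genes that interferon induces, so motif shares above those of all genes are no result of these arrays. RefSeq promoter windows of 300 bases, from 250 before to 50 after the start of each gene on build GRCm38.p6, were matched for 27 of the 35 measured members. No sequence is shown for Mx1, Mx2, Usp18, Oas2, Parp9, Parp14, Rtp4 and Dhx58. The ISRE core was searched as TTTC, any 2 bases and TTTC again, with its reverse complement GAAA, any 2 bases and GAAA. The GAS core was searched as TTC, any 3 bases and GAA, which reads the same on both strands. The motifs may overlap. An ISRE core lay in the window of 13 of the 27 members (48.1%), against 3.99% of 27025 genes with a window. A GAS core lay in 7 of the 27 (25.9%), against 9.55% of those genes. A match is a description of the letters and no evidence of binding. Stretches from 6 members whose levels are described further on are printed 5′ to 3′ along the strand of the gene, with ISRE and GAS matches in capitals. They were chosen to show a cluster of ISRE cores (Isg15), a spaced pair (Ifit1), a single core (Stat2, Rsad2), a GAS core without an ISRE core (Irf1) and both side by side (Igtp).
Isg15: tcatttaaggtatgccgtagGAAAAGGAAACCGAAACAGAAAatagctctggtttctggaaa
Ifit1: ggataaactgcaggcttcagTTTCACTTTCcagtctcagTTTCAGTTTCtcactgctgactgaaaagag
Stat2: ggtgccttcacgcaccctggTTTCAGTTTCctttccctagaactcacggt
Rsad2: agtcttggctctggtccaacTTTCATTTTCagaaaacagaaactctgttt
Irf1: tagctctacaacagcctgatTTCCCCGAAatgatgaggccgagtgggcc
Igtp: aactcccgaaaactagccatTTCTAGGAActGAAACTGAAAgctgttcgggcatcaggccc

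The Isg15 stretch is chr4:156200855-156200916 on the minus strand and holds 3 overlapping ISRE matches. The Ifit1 stretch is chr19:34640765-34640833 on the plus strand and holds 2. Those of Stat2, chr10:128270256-128270305 on the plus strand, and Rsad2, chr12:26456543-26456592 on the minus strand, hold 1 each. The Irf1 stretch, chr11:53769904-53769952, and the Igtp stretch, chr11:58199491-58199551, both lie on the plus strand. All 6 stretches end before the annotated start of the gene.

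Levels are log2 intensities made by robust multi-array average (RMA), on which a difference of 1 is a doubling. Differences between groups were tested with limma across all 22180 genes, and a gene is said to have been called, or to have been higher or lower, when its p-value adjusted by the Benjamini-Hochberg method was under 0.05. Group means below 4.09, which is the 40th percentile of the values of all probe sets, are taken as near background. This held for Mx1 in all 4 groups, for Mx2 in both AT groups and for Trim30a in visceral AP. A difference that involves such a mean is a fitted value. A mean above the cut may still be dim. In AP, from which blood cells were removed, the array means of the macrophage and monocyte markers lay between 4.91 and 5.18. Isg15 means outside subcutaneous AP, 5.3 to 5.57, were not far above that range, and the share of background in them was not tested. C57BL/6 mice are known to carry an inactive Mx1 allele.

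The arrays of a group correlated at 0.9869 to 0.9936 across genes. Marker genes followed the preparations: all 9 measured adipocyte markers and all 10 measured macrophage and monocyte markers were lower in AP in both depots, and 9 of 9 progenitor markers were higher in subcutaneous AP and 8 of 9 in visceral AP. Pericyte and smooth muscle markers were higher in AP as well, 5 of 7 in SAT and 7 of 7 in VAT. Their median log2 differences were 2.62 and 2.67, beside 1.52 and 1.78 for the progenitor markers. Of 10 endothelium markers 8 were lower and 2 higher in AP in both depots. The array means of the macrophage list lay between 4.91 and 5.18 in AP and between 7.81 and 8.54 in AT. All 18 measured immediate early and dissociation genes were higher in AP in SAT and 17 in VAT, with median log2 differences of 4.14 and 4.17. All 8 mesothelium markers were higher in VAT than in SAT in both preparations. Bulk RNA does not tell fewer cells of a type from less RNA per cell.

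**Figure D1:**
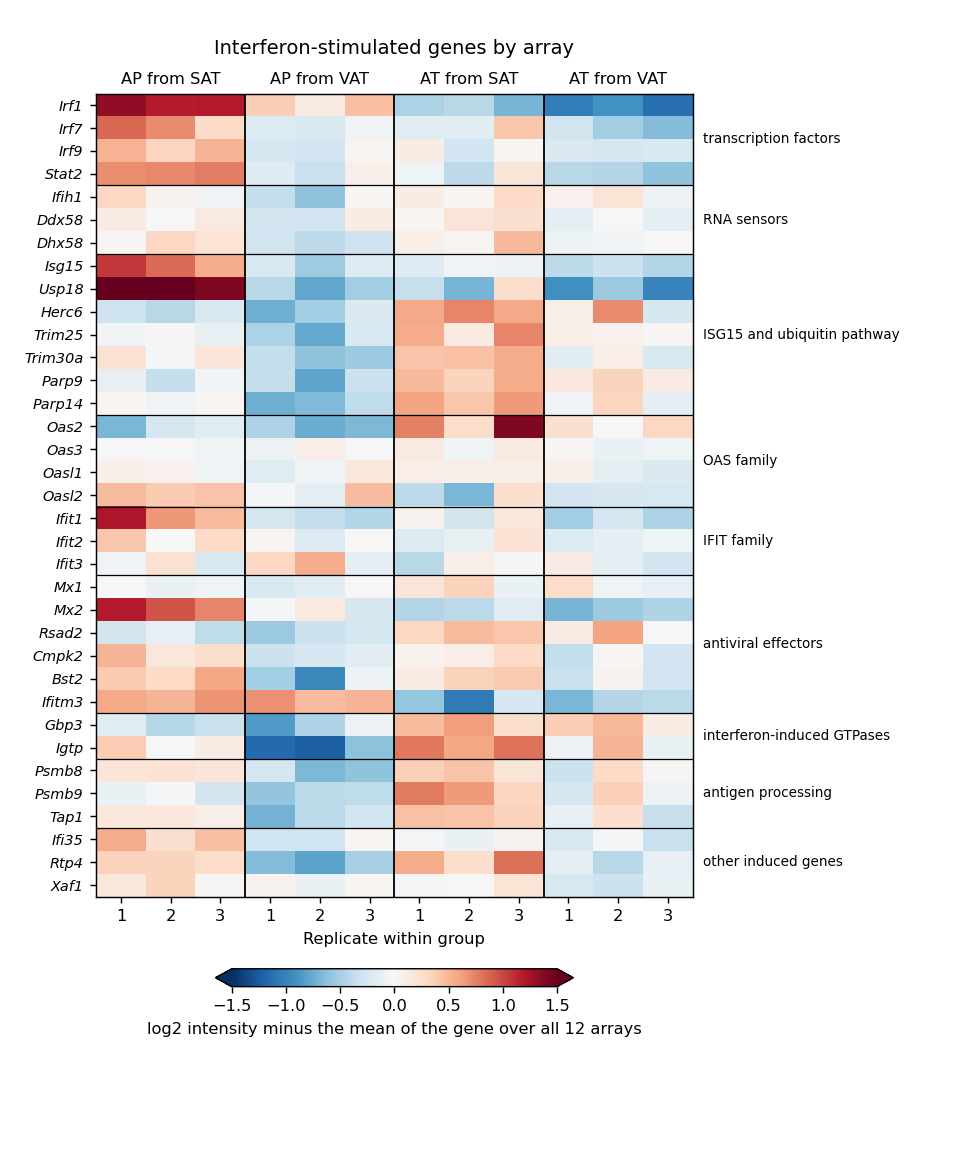
Log2 intensity of the 35 measured members on each of the 12 arrays, shown as the difference from the mean of the gene over all arrays, with 3 replicates in each of the 4 groups. Each member has a line of cells, and colour gives the size and sign of the difference. Subcutaneous AP had the highest mean for 15 members and subcutaneous AT for 19, while visceral AP had the lowest mean for 19 and visceral AT for 13.

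Across the 4 groups the members were high in subcutaneous material. The highest group mean was that of subcutaneous AP for 15 members and that of subcutaneous AT for 19. Over all genes these groups were highest for 26.5% and 23.1%. Only Ifit3, an RNA-binding effector, was highest in visceral AP, and no member was highest in visceral AT. Visceral AP had the lowest mean for 19 members and visceral AT for 13, against 23.3% and 26.5% of all genes.

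In progenitor preparations, 18 of the 35 members were lower in VAT than in SAT and 0 were higher, against 2.6% and 3.03% of all genes called lower and higher. At an unadjusted p under 0.05, limma had 23 members lower and 0 higher, against 7.94% and 7.43% of all genes. The median log2 difference of the members was -0.51, with a median of 0 over all genes, and 33 members were below 0. The exceptions were Ifit3, at 0.26 with a standard error (SE) of 0.182, and Oas3, a synthetase of the RNase L activator, at 0.03 with an SE of 0.0988. The replicates of the depots did not overlap for 20 members, all lower in VAT, against 10.5% of all genes lower without overlap and 9.87% higher. When arrays were scaled so that 11 housekeeping genes had the same median on each, the median of all genes in this comparison moved to 0.25 and 9 members were called lower, 0 higher. On that scale called genes were higher in VAT in 87.0% of cases, against 53.8% on the deposited scale. That scaling shifts all genes of an array by the same amount. The members' place relative to the median of all genes, -0.51 without it and -0.52 with it, therefore could not change beyond rounding.

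All 4 measured transcription factors of the list were lower in visceral AP. Stat2, a subunit of the ISRE-binding complex, read 7.68, 7.71 and 7.76 in subcutaneous AP and 6.79, 6.65 and 7.07 in visceral AP. Irf1, a factor induced by both types of interferon, read 8.33, 8.17 and 8.19 in subcutaneous AP and 7.37, 7.13 and 7.45 in visceral AP. No visceral array reached the lowest subcutaneous array for either gene. Their log2 differences were -0.88 for Stat2 (SE 0.14, limma adjusted p = 0.000888) and -0.91 for Irf1 (SE 0.117, limma adjusted p = 0.000115). Irf9, the subunit of the complex that recognises the ISRE, read 7.34, 7.15 and 7.33 in subcutaneous and 6.57, 6.54 and 6.86 in visceral AP. Irf7, the amplifier of type I interferon production, read 8.32, 8.17 and 7.74 against 7.25, 7.23 and 7.4. Both again separated the depots without overlap. Irf9 differed by -0.62 (SE 0.123, limma adjusted p = 0.00533) and Irf7 by -0.78 (SE 0.171, limma adjusted p = 0.0106). The calls of Irf9 and Irf7 were lost with the housekeeping scaling (limma adjusted p = 0.118 and 0.103). That of Irf7 was also lost without the first subcutaneous AP array (0.0702), the second (0.0527) or the second visceral AP array (0.053).

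The ISG15 system held the largest depot difference of the list. Isg15 is a ubiquitin-like protein joined to other proteins during the interferon response, and Usp18 is the protease that removes it. Usp18 read 8.18, 8.02 and 7.71 in subcutaneous AP and 5.89, 5.53 and 5.79 in visceral AP, a gap of more than 1 log2 unit between the closest arrays. The difference of -2.23 (SE 0.204, limma adjusted p = 4.25e-06) is a 4.7-fold lower level in VAT. Isg15 read 6.75, 6.54 and 6.24 in subcutaneous AP and 5.46, 5.15 and 5.48 in visceral AP. It differed by -1.15 (SE 0.13, limma adjusted p = 3.79e-05), and its arrays did not overlap either. Trim30a, a restraint on Toll-like receptor signalling, and Parp14, of the ADP-ribosyltransferase family, were lower by smaller amounts, with differences of -0.62 (SE 0.117) and -0.6 (SE 0.132). Both calls were lost with the housekeeping scaling, and that of Parp14 also without the first subcutaneous or the first or second visceral AP array (limma adjusted p = 0.0528, 0.0678 and 0.057). The ligase Herc6, which joins Isg15 to its targets in mice, differed by -0.17 (SE 0.192), and its arrays overlapped.

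Among the effectors, the families split. Ifit1, which binds viral RNA by its cap, read 7.82, 7.26 and 7.09 in subcutaneous AP and 6.35, 6.24 and 6.17 in visceral AP. Its difference was -1.14 (SE 0.166, limma adjusted p = 0.000392), whereas its relatives Ifit2, at -0.29, and Ifit3 were not called. Mx2, of a family of GTPases related to dynamin, read 5.49, 5.25 and 5.04 in subcutaneous AP and 4.29, 4.45 and 4.06 in visceral AP. The difference of Mx2 was -0.99 (SE 0.136, limma adjusted p = 0.000222), again without overlap. Igtp, a GTPase induced by interferon gamma that acts on vacuoles holding pathogens, read 7.4, 7.03 and 7.13 against 5.86, 5.8 and 6.41. It differed by -1.16 (SE 0.181, limma adjusted p = 0.000717). Rtp4, a membrane protein chaperone, read 7.87, 7.86 and 7.8 in subcutaneous AP and 6.87, 6.72 and 7.03 in visceral AP. It was lower by -0.97 (SE 0.138, limma adjusted p = 0.000313), and the subcutaneous arrays lay within 0.1 of each other.

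The remaining called members were Bst2, Cmpk2, Dhx58, Ifi35, Psmb8 and Tap1. Bst2, also known as tetherin, which holds virions at the cell surface, differed by -0.94 and the mitochondrial kinase Cmpk2 by -0.56. The RNA sensor Dhx58 differed by -0.51, while its relatives Ifih1 and Ddx58 were not called at -0.41 and -0.24. The immunoproteasome subunit Psmb8 differed by -0.7 and the peptide transporter subunit Tap1 by -0.6. Ifi35 was the only member with more than 1 probe set of its own: the one kept differed by -0.61 and the dimmer one by -0.22. Without the third visceral AP array Ifih1 was called (limma adjusted p = 0.027). With the housekeeping scaling Bst2 was still called, while Cmpk2 (0.159), Dhx58 (0.246), Ifi35 (0.112), Psmb8 (0.0593) and Tap1 (0.151) were not. Single arrays also ended calls: that of Cmpk2 was lost without the first subcutaneous or the first visceral AP array (0.0826 and 0.0606), and that of Psmb8 without the second visceral AP array (0.0544). The call of Dhx58 was lost without the second or the third subcutaneous or the first or second visceral AP array (0.0546 to 0.105), and that of Tap1 without any 1 subcutaneous AP array or the first visceral AP array (0.0521 to 0.109). The 4 measured OAS family genes, Oas2, Oas3, Oasl1 and Oasl2, were not called and ranged from -0.33 to 0.03. Ifitm3, which blocks virus fusion, read 11.6, 11.54 and 11.71 in subcutaneous and 11.72, 11.49 and 11.54 in visceral AP, with overlap.

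Marker lists were compared between the depots in AP as well. The macrophage and monocyte markers differed between visceral and subcutaneous AP by a median of 0, with 0 of 10 called by limma and 0 at an unadjusted p under 0.05. Of 18 immediate early and dissociation genes limma called 0 higher and 2 lower (2 and 3 at an unadjusted p under 0.05), with a median of -0.04. Mesothelium markers moved with the depot: all 8 were higher in visceral AP, by a median of 3.55, and their array means lay between 4.96 and 5.27 in subcutaneous AP and between 8.12 and 8.71 in visceral AP. Upk3b, a mesothelial membrane protein, averaged 6.42 ± 0.71 (SD, n = 3) in subcutaneous AP and 11.4 ± 0.24 (SD, n = 3) in visceral AP. Of 9 progenitor markers, 4 were lower in visceral AP, of 9 adipocyte markers 1 was higher, of 7 pericyte and smooth muscle markers 3 were higher, and of 10 endothelium markers 2 were higher and 1 lower. Of the 7 dendritic, 9 T and NK and 5 B cell markers, limma called 0, and 0 had an unadjusted p under 0.05. The part of any of these lists, called or not, in the depot difference of the members was not tested.

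**Figure D2:**
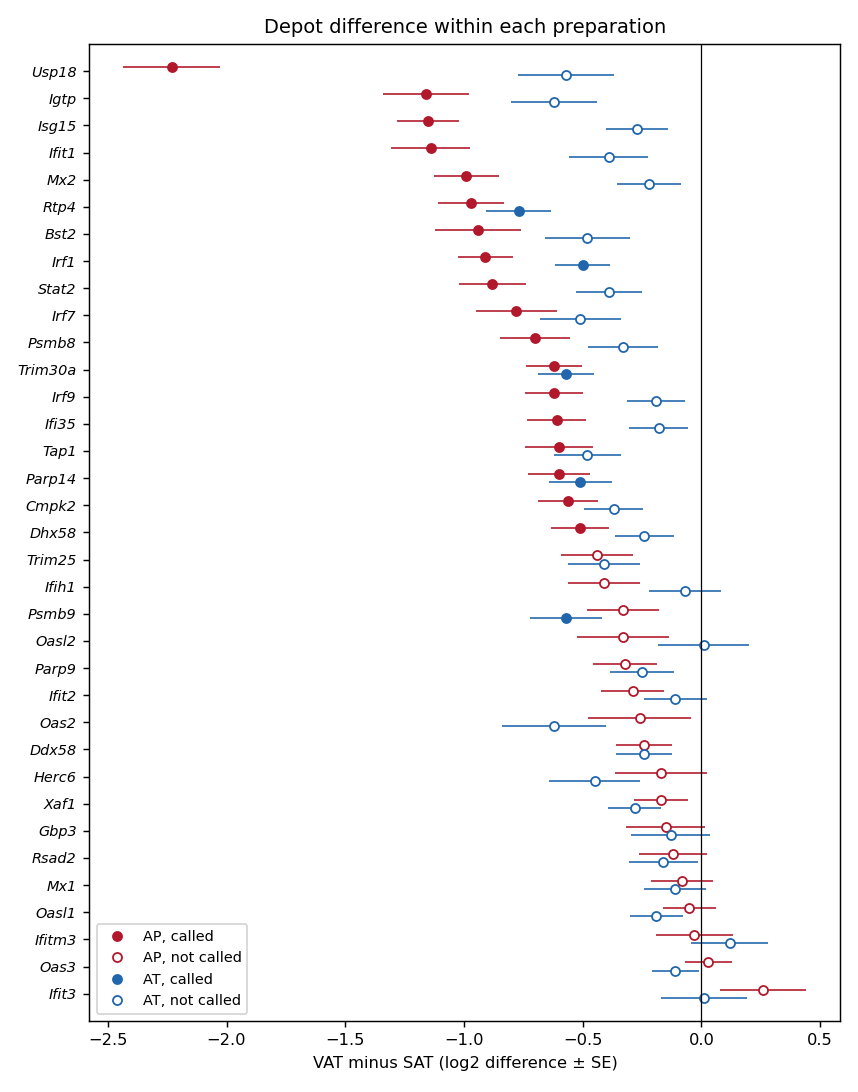
Log2 difference of VAT minus SAT for each measured member, in AP and in AT, as points with bars of 1 SE on either side. Filled points were called by limma at an adjusted p under 0.05 and open points were not. In AP 33 of 35 members lie below 0 and 18 are filled, and in AT 32 lie below 0 and 5 are filled.

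In whole tissue the members leaned the same way, with fewer calls. 5 members were lower in VAT and 0 higher, against 1.75% and 2.8% of all genes, and at an unadjusted p under 0.05 limma had 18 lower and 0 higher, against 7.02% and 8.76% of all genes. The median log2 difference was -0.28, and 32 members were below 0. The replicates did not overlap for 17 members, all lower in VAT, against 7.26% of all genes lower without overlap and 10.9% higher. Irf1, Parp14, Rtp4 and Trim30a were called in both preparations, which share no arrays, and Psmb9, an immunoproteasome subunit, in AT. Marker lists moved with the depot in AT as well. All 8 mesothelium markers were higher in visceral AT, by a median of 3.28, and 3 of 9 progenitor markers and 1 of 10 macrophage and monocyte markers were lower, with medians of -0.35 and -0.24. Of the 7 pericyte and smooth muscle markers 2 were higher and 1 lower, and 1 of 5 B cell and 1 of 9 adipocyte markers were higher. The part of these markers in the members' differences was not tested.

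Rtp4 read 8.08, 7.79 and 8.35 in subcutaneous AT and 7.39, 7.11 and 7.4 in visceral AT, a difference of -0.77 (SE 0.138, limma adjusted p = 0.00332). Trim30a read 4.98, 4.99 and 5.11 against 4.4, 4.65 and 4.31, a difference of -0.57 (SE 0.117, limma adjusted p = 0.00899). Neither overlapped between depots. Irf1 read 6.52, 6.58 and 6.3 in subcutaneous and 5.96, 6.09 and 5.86 in visceral AT, and differed by -0.5 (SE 0.117, limma adjusted p = 0.022). Parp14 read 7.93, 7.75 and 7.98 in subcutaneous and 7.28, 7.66 and 7.19 in visceral AT, and differed by -0.51 (SE 0.132, limma adjusted p = 0.0387). The second visceral array came within 0.09 of the lowest subcutaneous one for Parp14. Psmb9 read 7.22, 7.07 and 6.76 against 6.19, 6.79 and 6.36, with overlap, and differed by -0.57 (SE 0.153, limma adjusted p = 0.047).

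The count in whole tissue moved with single arrays. It was 9 without the second visceral AT array, 2 without the first subcutaneous AT array or the first or the third visceral AT array, and 3 without any 1 subcutaneous AP array or the second visceral AP array. Fitted on the AT arrays alone it was 2, and with the housekeeping scaling it was 8. The calls of Rtp4 and Trim30a held whichever array was left out. That of Irf1 was lost without the first (0.0891) or second (0.084) subcutaneous AT array or the first (0.069) or the third (0.0935) visceral AT array. That of Parp14 was lost without any 1 subcutaneous AP array, the second visceral AP array, the first or the third subcutaneous AT array, or the first or the third visceral AT array, with a limma adjusted p from 0.051 to 0.157. That of Psmb9 was lost without any 1 array except the third subcutaneous and the second visceral AT array (0.0563 to 0.203). Without the second subcutaneous AT array, Stat2 (0.0389), Usp18 (0.0365), Trim25 (0.0344) and Oas2 (0.0178) were called lower in VAT. Tap1, at -0.48 (SE 0.142, limma adjusted p = 0.0744), was called without the second visceral AT array (0.0112) and with the housekeeping scaling (0.035). Quantile normalization (0.0364), cyclic loess (0.0417) and array weights (0.0354) gave that call too. Cmpk2 was called without the second visceral AT array (0.0457) and Bst2 with the housekeeping scaling (0.0397). Igtp, at -0.62 (SE 0.181, limma adjusted p = 0.0712), was called without the second visceral AT array (0.0141), as was Herc6 (0.0146), without the third visceral AP array (0.0376), with quantile normalization (0.0367), cyclic loess (0.0393) and array weights (0.0254), and with the housekeeping scaling (0.0096).

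**Figure D3:**
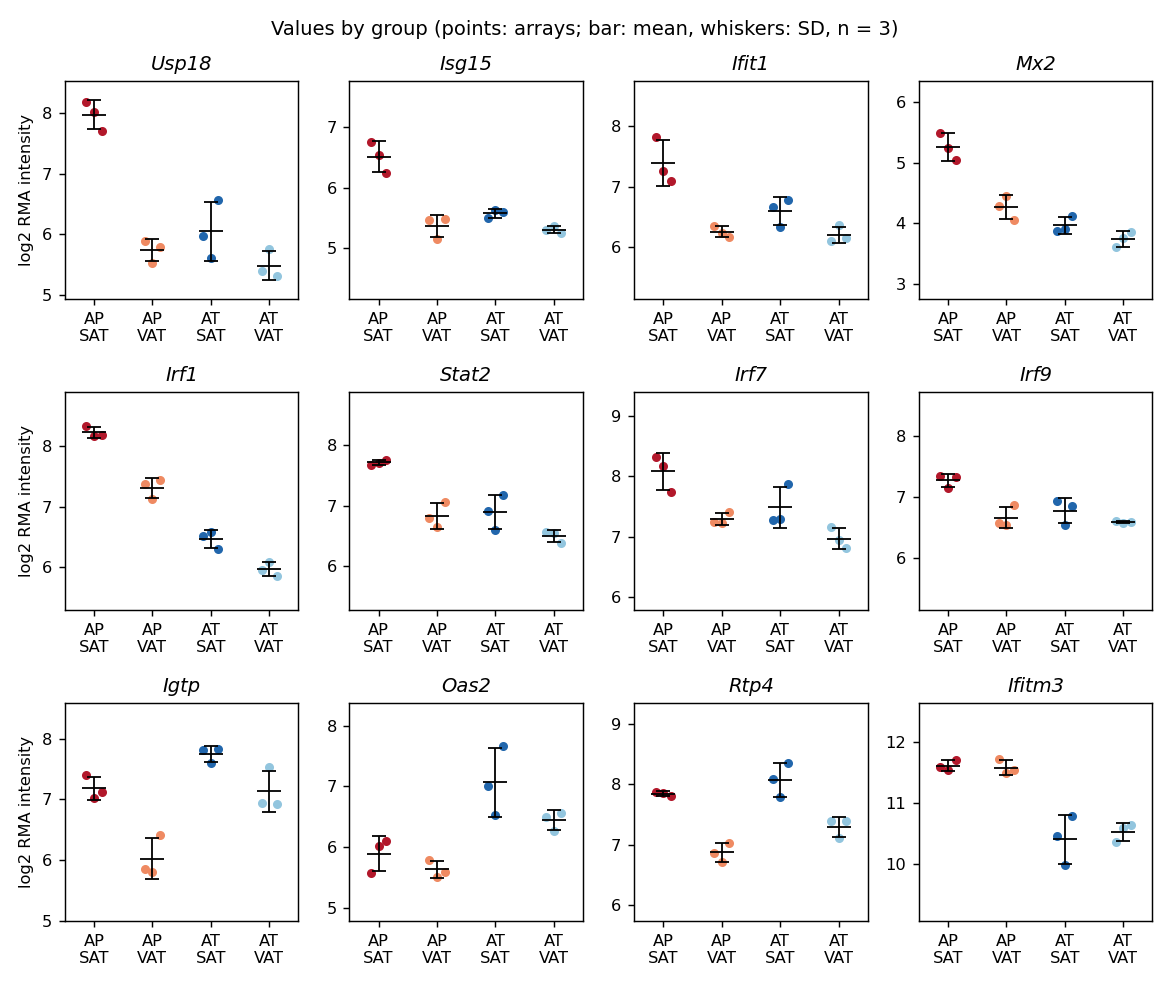
Log2 RMA intensity of single members in the 4 groups, with points for the arrays, a bar at the mean and whiskers of 1 SD (n = 3). Usp18 and Isg15 stand above the other 3 groups in subcutaneous AP. Irf1 descends from subcutaneous AP, at a mean of 8.23, to visceral AT, at 5.97.

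Progenitors and whole tissue were next compared within each depot. In SAT, 11 members were higher in AP and 10 lower, against 16.1% and 16.3% of all genes. In VAT, 3 were higher and 13 lower, against 15.8% and 16.8%. The median log2 differences were -0.04 and -0.06, near the 0.03 of all genes in both depots, while single members spread from -1.17 to 1.92 in SAT and from -1.11 to 1.35 in VAT. Irf1, Ifitm3 and Mx2 were higher in AP in both depots. Gbp3, Herc6, Igtp, Oas2, Parp14, Parp9, Psmb9, Rsad2, Trim25 and Trim30a were lower in both. Macrophage and monocyte markers were lower in AP by medians of 3.27 in SAT and 2.99 in VAT. Immediate early genes and pericyte and smooth muscle markers were higher. The part of any of these lists in the members' differences was not tested.

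The split in VAT depended on scaling and on single arrays. With the housekeeping scaling, 7 members were higher and 5 lower in VAT, and 8 higher and 11 lower in SAT. That scaling moved the median of all genes to -0.12 in SAT and 0.25 in VAT, and of all called genes 33.0% were then higher in SAT and 72.5% in VAT, against 49.7% and 48.4% on the deposited scale. The 13 members lower in visceral AP became 7 without the second visceral AP array and 8 without the second visceral AT array.

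The transcription factors were all higher in subcutaneous AP than in subcutaneous AT. Irf1 stood furthest apart, with AP arrays from 8.17 to 8.33 and AT arrays from 6.3 to 6.58, a difference of 1.76 (SE 0.117, limma adjusted p = 1.36e-08). In VAT the Irf1 difference was 1.35 (SE 0.117, limma adjusted p = 2.67e-07), again without overlap. Stat2 read 6.92, 6.6 and 7.17 in subcutaneous AT, below every subcutaneous AP array, and differed by 0.82 (SE 0.14, limma adjusted p = 0.000245). In VAT Stat2 differed by 0.33 (SE 0.14, limma adjusted p = 0.0848), with arrays of 6.57, 6.55 and 6.39 in AT and no overlap. It was called there with the housekeeping scaling, at 0.55 (limma adjusted p = 0.0113), with quantile normalization (0.0208), with cyclic loess (0.0295) and without the second subcutaneous AT array (0.0485).

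Irf9 read 6.94, 6.54 and 6.85 in subcutaneous AT and differed by 0.5 (SE 0.123, limma adjusted p = 0.00489). Irf7 read 7.28, 7.3 and 7.87 in subcutaneous AT, the last of these above the lowest AP array, and differed by 0.59 (SE 0.171, limma adjusted p = 0.0132). In VAT Irf9 and Irf7 were not called, with differences of 0.07 and 0.32. The housekeeping scaling ended both subcutaneous calls (limma adjusted p = 0.0909 for Irf9 and 0.119 for Irf7). That of Irf7 was also lost without the first or second subcutaneous AP array (0.0734 and 0.0523) or the first or second subcutaneous AT array (0.068 and 0.0599). In VAT the housekeeping scaling brought Irf7 to a call, at 0.54 (limma adjusted p = 0.0441).

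Members of the ISG15 system moved in opposite directions between AP and AT. Usp18 read 5.97, 5.61 and 6.57 in subcutaneous AT, all below the AP arrays, and was higher in AP by 1.92 (SE 0.204, limma adjusted p = 2.14e-06). Isg15 read 5.49, 5.63 and 5.6 in subcutaneous AT and was higher in AP by 0.94 (SE 0.13, limma adjusted p = 3.39e-05). In VAT neither was called, at 0.25 for Usp18 and 0.06 for Isg15, with overlapping arrays. Herc6 read 6.24, 6.13 and 6.32 in subcutaneous AP and 7.12, 7.28 and 7.12 in subcutaneous AT, a difference of -0.94 (SE 0.192, limma adjusted p = 0.0011). So the ligase gene was lower in AP, where the genes of the modifier and its protease were higher. In VAT Herc6 overlapped, at 5.82, 6.03 and 6.33 in AP and 6.63, 7.26 and 6.28 in AT, with a difference of -0.66 (SE 0.192, limma adjusted p = 0.0144). That call was lost with the housekeeping scaling (0.057), without the first visceral AP array (0.0746) and without the second visceral AT array (0.0696).

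Parp9 and Parp14, members of the ADP-ribosyltransferase family, were lower in AP in both depots. Parp9 read 6.49, 6.25 and 6.57 in subcutaneous AP against 7.1, 6.94 and 7.17 in AT, and 6.25, 5.82 and 6.29 in visceral AP against 6.77, 6.95 and 6.74. The differences of Parp9 were -0.63 (SE 0.135, limma adjusted p = 0.00161) and -0.7 (SE 0.135, limma adjusted p = 0.00078). Those of Parp14 were -0.55 and -0.63, each with an SE of 0.132. Neither gene overlapped between AP and AT in either depot. Trim25, a ligase that activates the RNA sensor Ddx58, differed by -0.52 in SAT and -0.55 in VAT. Its subcutaneous call was lost without the third subcutaneous AP array (0.0519) or the first or the third subcutaneous AT array (0.0538 and 0.0752), and its visceral call with the housekeeping scaling (0.101) or without the second visceral AP array (0.0613). Trim30a differed by -0.35 in SAT (SE 0.117, limma adjusted p = 0.0314), a call that was lost without the second or the third subcutaneous AP array or any 1 subcutaneous AT array. It differed by -0.4 in VAT (SE 0.117, limma adjusted p = 0.0154), a call that was lost with the housekeeping scaling (0.289) and without the second visceral AP (0.0645) or second visceral AT array (0.0808).

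Of the effectors, Ifitm3 and Mx2 were higher in AP and Oas2 and Rsad2 lower. Ifitm3 read 10.45, 9.97 and 10.78 in subcutaneous AT and 10.35, 10.59 and 10.63 in visceral AT, each below every AP array, which all exceeded 11. It differed by 1.22 in SAT and 1.06 in VAT, each with an SE of 0.162 (limma adjusted p = 2.16e-05 and 9.4e-05). Mx2 was near background in AT, at 3.87, 3.9 and 4.13 in SAT and 3.61, 3.76 and 3.86 in VAT, and its fitted differences were 1.29 and 0.52 (SE 0.136 each, limma adjusted p = 1.95e-06 and 0.00732). Oas2 read 5.57, 6.01 and 6.1 in subcutaneous AP and 7.01, 6.53 and 7.66 in subcutaneous AT, a difference of -1.17 (SE 0.218, limma adjusted p = 0.00051). In VAT it read 5.79, 5.51 and 5.59 against 6.5, 6.26 and 6.57, and differed by -0.81 (SE 0.218, limma adjusted p = 0.00898), which the housekeeping scaling brought to -0.6 (0.0522). Oasl2, an OAS-like relative, went the other way, at 0.71 in SAT (SE 0.192, limma adjusted p = 0.00915), a call lost without the second subcutaneous AT array (0.0535). Ifit1 read 6.66, 6.34 and 6.78 in subcutaneous AT and was higher in AP by 0.8 (SE 0.166, limma adjusted p = 0.00131). In visceral AT it read 6.1, 6.36 and 6.15, which overlapped with AP at a difference of 0.05.

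Rsad2, known as viperin, which makes a chain-terminating nucleotide, read 5.51, 5.66 and 5.4 in subcutaneous AP and 6.09, 6.26 and 6.2 in AT. In VAT it read 5.22, 5.46 and 5.52 against 5.91, 6.38 and 5.78. It differed by -0.66 in SAT and -0.62 in VAT, each with an SE of 0.144 (limma adjusted p = 0.0019 and 0.00318), without overlap. Its neighbour in the pathway, Cmpk2, which supplies the nucleotide substrate, was not called in either depot, at 0.16 and -0.03.

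The interferon-induced GTPases and the antigen processing genes were lower in AP where they were called. Gbp3, a guanylate-binding protein, read 5.14, 4.9 and 4.99 in subcutaneous AP against 5.8, 5.96 and 5.59 in AT, and 4.48, 4.87 and 5.24 in visceral AP against 5.7, 5.82 and 5.44. It differed by -0.77 and -0.79 (SE 0.167 each, limma adjusted p = 0.00181 and 0.00169). Neither depot showed overlap. Igtp read 7.82, 7.6 and 7.84 in subcutaneous AT and 6.94, 7.53 and 6.93 in visceral AT. It differed from AP by -0.57 in SAT (SE 0.181, limma adjusted p = 0.0247) and by -1.11 in VAT (SE 0.181, limma adjusted p = 0.000178). The subcutaneous call of Igtp was lost without the second or the third subcutaneous AP array or the first or the third subcutaneous AT array (limma adjusted p from 0.0717 to 0.0995).

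Psmb9 read 6.34, 6.42 and 6.16 in subcutaneous AP and 5.85, 6.03 and 6.05 in visceral AP, below all AT arrays of the same depot. It differed by -0.71 in SAT (SE 0.153, limma adjusted p = 0.00177) and by -0.47 in VAT (SE 0.153, limma adjusted p = 0.0277). The visceral call was lost with the housekeeping scaling (0.189), without either of the first 2 visceral AP arrays (0.105 and 0.0526) and without the second visceral AT array (0.149). Psmb8 and Tap1 were called lower in AP in VAT, at -0.5 and -0.39, and were not called in SAT, at -0.13 and -0.27. The housekeeping scaling ended both visceral calls (0.12 and 0.364). That of Psmb8 was also lost with array weights (0.0965), without the second or the third visceral AP array (0.0765 and 0.0537) and without the second visceral AT array (0.0884). That of Tap1 was lost with quantile normalization (0.107), cyclic loess (0.097), the visceral arrays alone (0.104) and without any 1 array except the third of visceral AP and the third of visceral AT (0.0527 to 0.236). Tap1 was called in SAT, in the same direction, with the housekeeping scaling (0.0448) and with the subcutaneous arrays alone (0.0413). Rtp4 differed by -0.43 in VAT (SE 0.138, limma adjusted p = 0.0265), a call lost with the housekeeping scaling (0.32), quantile normalization (0.0783), cyclic loess (0.0719), without either of the first 2 visceral AP arrays (0.0663 and 0.112) and without the first or the third visceral AT array (0.0903 and 0.0789). In SAT Rtp4 was not called, at -0.23.

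**Figure D4:**
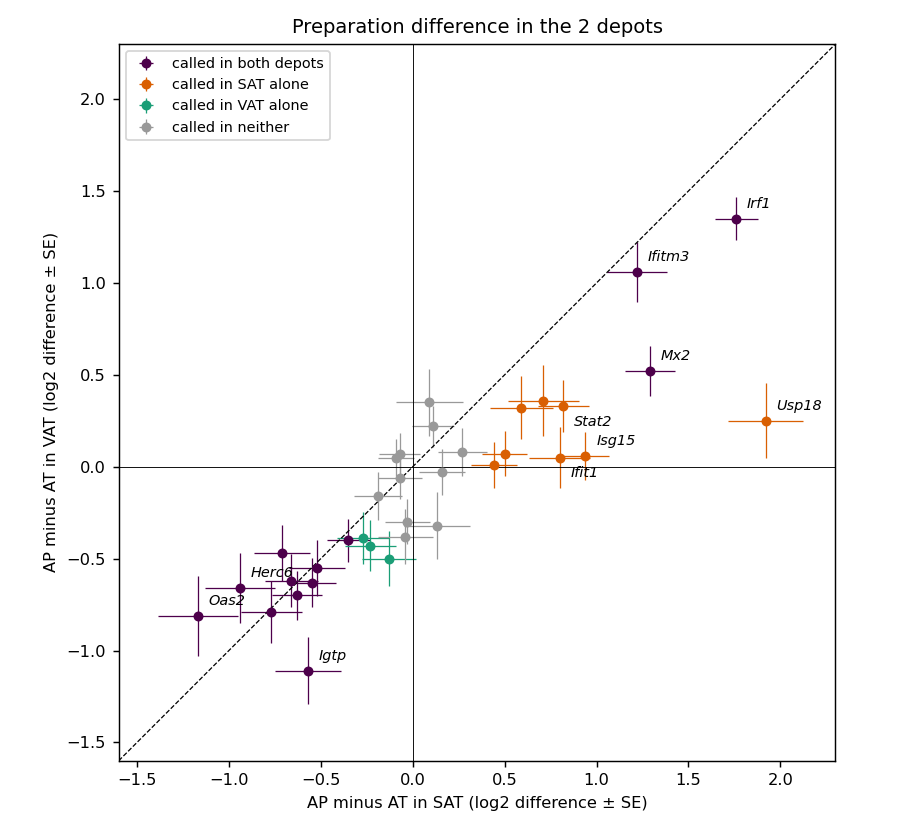
Log2 difference of AP minus AT in SAT on the x axis and in VAT on the y axis for the 35 measured members, with bars of 1 SE on either side and colour for the calls by limma. Members in the lower left were lower in AP in both depots, among them Oas2 and Igtp. Irf1, Ifitm3 and Mx2 were called higher in both, and Usp18 lies far to the right at 1.92 in SAT and near 0.25 in VAT.

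Whether the difference between AP and AT depended on the depot was tested by the interaction, which is the VAT minus SAT difference of AP less that of AT. Of the 35 members 2 were called, both negative, against 1.16% of all genes called in that direction, and 0 were positive, against 0.987%. At an unadjusted p under 0.05 limma had 8 negative and 0 positive, against 7.53% and 5.85% of all genes. The interaction of Usp18 was -1.67 (SE 0.288, limma adjusted p = 0.007). That of Isg15 was -0.88 (SE 0.184, limma adjusted p = 0.0215). For both, subcutaneous AP stood above the other 3 groups, whose means lay between 5.48 and 6.05 for Usp18 and between 5.3 and 5.57 for Isg15. The Usp18 call held when any 1 array was left out and with the housekeeping scaling, at -1.3 (0.0132). The Isg15 call was lost with that scaling, at -0.51 (0.131), and without the first (0.063) or second subcutaneous AP array (0.0575), the second visceral AP array (0.0628) or the first subcutaneous AT array (0.0613). The housekeeping scaling moved the interaction of the median gene to 0.36, and 93.8% of called genes were then positive, against 46.0% on the deposited scale.

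Mx2 came close to a call at -0.77 (SE 0.192, limma adjusted p = 0.0523), with means near background in AT. It passed with quantile normalization (0.031), cyclic loess (0.0327), array weights (0.0433), the filter on dim genes (0.0422), and without the third subcutaneous AP array (0.0383) or the third subcutaneous AT array (0.0331). Ifit1 was not called at -0.75 (SE 0.234, limma adjusted p = 0.136). Apart from Usp18 and Isg15, members called in 1 depot or 1 preparation and not in the other therefore have no called interaction. For them a call on 1 side alone is no call that the sides differ.

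The comparison of AP with AT in SAT and that of VAT with SAT in AP share the subcutaneous AP arrays, so their values are set side by side without an overlap being drawn from them. Usp18 had 1.92 in the first and -2.23 in the second, Isg15 0.94 and -1.15, Mx2 1.29 and -0.99, Ifit1 0.8 and -1.14, Stat2 0.82 and -0.88. Igtp had -0.57 and -1.16, and Parp14 -0.55 and -0.6.

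ISRE cores were found among called and uncalled members alike. Of the 13 members with a window that were lower in visceral AP, 6 held an ISRE core, and of the 14 not called 7 did. In SAT, 4 of 9 members higher in AP, 4 of 7 lower and 5 of 11 not called held one. A GAS core lay in 5 of the 13 members lower in visceral AP and in 2 of the 14 not called. For AP against AT in SAT it lay in 3 of 9 higher, 1 of 7 lower and 3 of 11 not called. Whether these shares differ was not tested. Among the printed sequences, those of Isg15, Ifit1, Stat2 and Irf1 belong to members higher in subcutaneous AP than in AT. Those of Igtp and Rsad2 belong to members that were lower.

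Within groups, members tended to rank together by array. The third visceral AP array was the highest of its group for 23 of 35 members, against 37.8% of all genes, and the second for 3, against 29.2%. In subcutaneous AT the third array was highest for 22 members, against 30.6% of all genes. In visceral AT the second was highest for 19 and in subcutaneous AP the first for 18, against 36% of all genes in each case. The widest spread within a group was that of Oas2 in subcutaneous AT, with an SD of 0.57, followed by Herc6 in visceral AT, at 0.5.

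Other genes of the pathway were taken from lists that hold no member. Of 21 interferon ligand genes 19 were measured, and 10 to 12 of these were near background in each group. The ligands had 0 calls between depots in AP, with 0 higher and 2 lower at an unadjusted p under 0.05 in limma, and 0 calls in AT, with 0 at an unadjusted p under 0.05. Ifnb1, the beta interferon, was near background in all 4 groups, at means of 2.66 to 3.2, with fitted differences of AP minus AT of -0.4 in SAT and -0.45 in VAT. The probe set of Ifnl2, a lambda interferon, was higher in AP by 0.8 in VAT and 0.43 in SAT. Its means were high in all 4 groups, from 7.26 in visceral AT to 8.06 in visceral AP. Whether it measures Ifnl2 RNA alone was not tested. Ifna7 was called higher in AP too, with fitted differences of 1.17 and 0.58 against means near background in AT, at 3.58 in VAT and 3.85 in SAT. All 6 receptor subunits were measured, and 0 differed between depots in AP, also at an unadjusted p under 0.05 in limma. Between AP and AT in SAT, Ifngr2 of the gamma receptor was higher by 0.54 and Ifnar2 lower by -0.5, and in VAT Ifngr1 was lower by -0.36.

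For the JAK and STAT genes, 8 were measured, and 0 were called between depots in either preparation. At an unadjusted p under 0.05 in limma, 1 of them was lower in AP and 0 in AT. In SAT 4 were higher in AP, led by Stat6 at 0.95 and Jak1 at 0.53, and 3 lower, among them Stat5a at -0.49 and Stat4, whose mean of 4.04 in subcutaneous AP was near background, at a fitted -0.82. In VAT 3 were higher, led by Stat6 and Jak1 at 0.6 each, and 2 lower, Stat5a at -0.73 and Jak2 at -0.35.

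Among restraints on interferon signalling, all 17 were measured. Socs3, a JAK inhibitor that also belongs to the list of immediate early genes, averaged 8.84 in both AP groups, 5.23 in subcutaneous AT and 4.96 in visceral AT. Its differences were 3.62 in SAT and 3.87 in VAT (SE 0.123 each, limma adjusted p = 8.25e-12 and 3.85e-12). Tnfaip3, an inhibitor of inflammatory signalling, was higher in AP by 2.45 and 1.76. The phosphatase Ptpn6, abundant in blood cells, was lower by -1.35 in both depots, and Nlrc5, which activates MHC class I genes, by -0.69 in SAT. Ptpn11, a related phosphatase, was lower by -1.04 in VAT. In all, 6 restraints were higher and 4 lower in subcutaneous AP, and 5 higher and 4 lower in visceral AP. Between depots in AP 0 were called, with 3 lower and 0 higher at an unadjusted p under 0.05 in limma.

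Nucleic acid sensing genes and the other interferon regulatory factors held the depot calls outside the list. Zbp1, a sensor of Z-form nucleic acids that interferon also induces, read 7.64, 7.65 and 7.54 in subcutaneous AP and 5.83, 6.11 and 6.28 in visceral AP. In AT it read 7.05, 7.02 and 7.11 in SAT and 6.21, 6.38 and 6.33 in VAT. Neither preparation overlapped between depots, and the differences were -1.54 in AP and -0.75 in AT (SE 0.114 each, limma adjusted p = 5.01e-07 and 0.000909). The interaction of Zbp1 was called, at -0.78 (SE 0.162, limma adjusted p = 0.0196), in the same direction as Usp18 and Isg15. Adar, an RNA-editing enzyme with an interferon-induced form, and the adaptor Myd88 were lower in visceral AP by -0.5 and -0.45.

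Irf4, an interferon regulatory factor that is not itself a typical interferon target, differed by -1.92 in AP (SE 0.274, limma adjusted p = 0.000331) and by -1.29 in AT (SE 0.274, limma adjusted p = 0.0115). It read 6.81, 6.73 and 6.39 in subcutaneous AP and 4.95, 4.6 and 4.63 in visceral AP. Irf8, a factor of myeloid cells, was lower in AP than in AT by -0.65 in SAT and -0.51 in VAT. Tlr7 and Tlr8, RNA receptors of endosomes that macrophages express, were near background in AP, at means of 3.42 and 3.13 in SAT and 3.46 and 3.22 in VAT. They were called lower than in AT, beside the macrophage markers, with fitted differences of -2.62 and -3.44 in SAT and -2.45 and -2.44 in VAT. They were not called between the AP groups, and between the AT groups Tlr8 was lower in VAT by -0.91. Ifi204, a DNA sensor, and Myd88 were higher in AP, by 1.44 and 1.2 in SAT and 2.03 and 1 in VAT.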

How the data were processed

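The authors deposited log2 intensities per probe set for 12 arrays. Per the submitters' processing notes, they were made by RMA in Affymetrix Expression Console 1.3.0.187. Base 2 follows from RMA and fits values between 1.69 and 13.48. Annotation library and summary level are not given in the sources used here. Of 41345 probe sets, 23521 had 1 gene, 1814 several and 16010 none. The values were used without further normalization or filter.

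The tests used limma 3.58.1 (R 4.3.3), with 4 group means over 12 arrays, 8 residual and 6.84 prior degrees of freedom, 2-sided moderated tests and Benjamini-Hochberg adjustment over 22180 genes within each of 5 contrasts. The number of arrays limits the precision. Members and lists were chosen with earlier results of these data known. Full values are given for all transcription factors and for the called members with the largest changes, up to 5 per direction and contrast. From each pathway list up to 2 called genes per direction and contrast were to be named. Other genes named were chosen after their values were seen.

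On simulated data for VAT minus SAT in AP over 22180 genes, 23 of 50 genes changed by 0.5 (log2), 45 of 50 changed by 1, and 50 of 50 each changed by 2 and by 4 were called, beside 14 unchanged ones. With no gene changed, 0 were called in any contrast. Motifs and figures were made with Python 3.11.15.

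Alternatives were quantile normalization, cyclic loess, scaling on 11 measured housekeeping genes, the replicate number as a block, trended and robust empirical Bayes, array weights, the compared groups alone, removal of genes averaging under the 40th percentile (15788 kept), the mean over probe sets, calls restricted to log2 differences of 1 or more, and 1 array left out at a time.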

Additional observations from a re-analysis of the deposited data

Results flagged for a closer look

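For Usp18 and Isg15 the difference between AP and AT was called as unlike in the depots, by the test of the interaction itself in limma. Usp18 was higher in subcutaneous AP than in subcutaneous AT by 1.92 and differed by 0.25 in VAT, which gives an interaction of -1.67 (SE 0.288, limma adjusted p = 0.007). Isg15 was higher by 0.94 in SAT and differed by 0.06 in VAT, an interaction of -0.88 (SE 0.184, limma adjusted p = 0.0215). The Isg15 call was lost with the housekeeping scaling (limma adjusted p = 0.131). It was also lost without the first or second subcutaneous AP, the second visceral AP or the first subcutaneous AT array (0.0575 to 0.063). The Usp18 call held in all 21 alternatives run.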

How the results depend on the processing

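No member was called higher in VAT than in SAT, in either preparation, under any alternative run, and no result that had been called changed its sign. With the housekeeping scaling, the medians of the members were -0.19 and 0.15 for AP minus AT in SAT and VAT, -0.27 and -0.4 for VAT minus SAT in AP and AT, with 0.18 for the interaction. The counts with it were 7 higher and 5 lower for AP minus AT in VAT, 9 and 8 lower for VAT minus SAT in AP and AT, and 1 for the interaction. Their cause was not tested beyond the shift of all genes. With the compared groups alone, 2 members were lower in visceral AT. A log2 difference of at least 1 left 4 higher and 1 lower for AP minus AT in SAT, 2 higher and 1 lower in VAT, 4 lower for VAT minus SAT in AP, 0 in AT and 1 for the interaction. The counts in this section stand without the share of all genes called at each setting. They tell only how the calls of the members moved.

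With each array left out in turn, the members called ranged as follows. AP minus AT had 9 to 12 higher and 7 to 10 lower in SAT, and 3 to 4 higher and 7 to 14 lower in VAT. Of members lower in VAT there were 14 to 20 in AP and 2 to 9 in AT. The interaction had 1 to 3. The medians ranged from -0.08 to 0.03 and from -0.19 to 0 for AP minus AT in SAT and VAT, from -0.58 to -0.45 and from -0.34 to -0.26 for VAT minus SAT in AP and AT, and from -0.3 to -0.11 for the interaction. Of 3810 values of the 35 members under an alternative, over 175 results, 3598 stayed on their side of the threshold, 167 lost the call and 45 gained one.

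With the replicate number as a block, AP minus AT had 11 higher and 10 lower members in SAT and 3 higher and 12 lower in VAT, 18 were lower in visceral AP, 4 in visceral AT, and 2 were called in the interaction. Samples with the same number correlated at -0.28 to 0.16 in their deviations from the group means, over 18 pairs, and 3 exceeded 0.1. An array correlated best with its own number in 15 of 36 pairings, and the main fit did not pair the samples by number. Between subcutaneous and visceral AP, correlations were 0.02 to 0.12 for the same number and -0.18 to 0.08 for others. Whether those AP samples are paired was not settled by these values. The block ended the calls of Parp14 for VAT minus SAT in AT (limma adjusted p = 0.0625) and of Tap1 for AP minus AT in VAT (0.0501). In the simulated data for VAT minus SAT in AP, with 3 arrays a group, 23 of 50 differences of 0.5 were called. Fewer genes changed there than were called in the data, so the share missed in these comparisons may differ. Levels near background have no reliable fold.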
